A study of Mus musculus with 2 samples.

Results

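Gzmb and Cma1, the mouse genes of granzyme B and mast cell chymase, were followed in E-cadherin+ bone marrow cells sorted into a cKIT+ and a cKIT- fraction. They are 2 of the 31053 genes in the feature tables and 2 of the 19277 genes with a UMI in a kept cell, and each was found by its symbol in both tables. A UMI, or unique molecular identifier, marks 1 captured RNA molecule. The pair was chosen because earlier values of these same libraries showed both genes high in the cluster with the most Kit, so their levels by sort and cluster and their presence together are given as descriptions.

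The study sorted bone marrow cells to relate E-cadherin+cKIT+ progenitors to E-cadherin+cKIT- basophil and mast cell precursors. There was 1 library per sort, from pooled cells of 3 mice, and no cell can be traced to its mouse. The mice were of the FVB strain per the labels, were called wild-type in the study's text, and were named as VaviCre;mTmG in its legend. That genotype carries a Cre recombinase driven in blood cells by the Vav promoter and a reporter that turns green after recombination. It keeps Cdh1, the E-cadherin gene, intact, and both sorts share it. No treatment was given, and no age is stated. With 1 library per sort there was no replicate check and no test between sorts, and all intervals below are 95% intervals that cover counting error only. Where a count is 0, the limit given is the value that 3 counts would make.

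Granzyme B is a serine protease that cytotoxic T cells and natural killer (NK) cells store in granules and release into target cells, where it cuts substrates that lead to cell death; cells of the mast lineage can also carry it. Mast cell chymase, the product of Cma1, is a serine protease of mast cell granules, where it is held by the proteoglycan serglycin. Both are made as inactive precursors that dipeptidyl peptidase I, the product of Ctsc, trims into active enzymes. Kit is the receptor for stem cell factor, which mast cells need for growth, and it is the antigen by which the cells were sorted.

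Gzmb (ENSMUSG00000015437) lies on chromosome 14 at 56258838 to 56262260 and Cma1 (ENSMUSG00000022225) at 55941451 to 55944675, both on the minus strand, in the GRCm38 build. Each has 5 exons in its first annotated transcript. Kit (ENSMUSG00000005672) lies elsewhere, on chromosome 5 at 75574916 to 75656722 on the plus strand. From the start of Cma1 to the end of Gzmb is 320810 bp, a stretch known as the chymase locus for the granule proteases it holds.

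The 250 bases before each start site, from RefSeq on GRCm38.p6, are shown because both genes were high in the same cells. They are read 5′ to 3′ on the minus strand, at chr14:56262335-56262584 for Gzmb and chr14:55944676-55944925 for Cma1. Capitals mark TGTGGT, the core letters bound by RUNX factors.
Gzmb: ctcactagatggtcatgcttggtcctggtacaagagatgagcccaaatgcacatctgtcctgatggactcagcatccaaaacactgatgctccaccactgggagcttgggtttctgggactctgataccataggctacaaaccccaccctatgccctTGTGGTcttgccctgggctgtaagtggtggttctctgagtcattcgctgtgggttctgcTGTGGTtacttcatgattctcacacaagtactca
Cma1: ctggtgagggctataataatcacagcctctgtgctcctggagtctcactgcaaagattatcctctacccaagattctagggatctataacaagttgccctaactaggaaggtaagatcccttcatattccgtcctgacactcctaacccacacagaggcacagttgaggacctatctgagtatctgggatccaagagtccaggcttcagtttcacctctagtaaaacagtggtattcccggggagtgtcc
The Gzmb window held TGTGGT at 93 to 88 and at 34 to 29 bases before the RefSeq start, and the Cma1 window did not hold it on either strand. For Gzmb the RefSeq start lies upstream of the annotated gene end given above, 56262260, while for Cma1 the 2 agree. All distances here count from the RefSeq start. Of 32851 RefSeq promoters of the same length, 14.0% held it. The E-box letters CANNTG, read by basic helix-loop-helix factors such as MITF, stood at 207 to 202 and 199 to 194 bases before the start of Gzmb and at 90 to 85 before that of Cma1, and 66.2% of all promoters held them. AGATAA, the only form of the GATA letters searched, and TGACGTCA, the CRE letters, were in neither window. They were in 9.99% and 1.55% of all promoters. Other forms of the GATA letters were not searched, such as AGATAG, which the Cma1 window holds on its other strand. The windows are thus not shown to lack GATA letters. The motif letters were searched on both strands and describe the windows only.

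The cKIT+ library held 6479 kept cells with a median of 13039 UMIs and the cKIT- library 3662 with a median of 4416.5. The sums over kept cells were 91108781 and 22869169 UMIs, so a level is given as CPM, the UMIs of a gene scaled to 1e6 of the summed UMIs. Shares of cells are given at an equal depth of 2000 UMIs drawn from each cell, which left out 345 cKIT+ and 176 cKIT- cells below that depth. There were 10 cell barcodes found in both libraries, and these cells held 0 Gzmb and 0 Cma1 UMIs. Cells with the highest doublet scores from Scrublet, 320 kept cells in cKIT+ and 105 in cKIT-, were kept in the main values and left out in an alternative.

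Both proteases were higher in the cKIT+ library. Gzmb was at 89.6 CPM (8165 UMIs, 87.7 to 91.6) in cKIT+ and 12.3 CPM (281 UMIs, 10.9 to 13.8) in cKIT-, a ratio of 7.29 (6.48 to 8.24). Cma1 was at 17.9 CPM (1631 UMIs, 17.0 to 18.8) and 1.97 CPM (45 UMIs, 1.44 to 2.63), a ratio of 9.10 (6.77 to 12.5). The intervals of the Gzmb and Cma1 ratios overlapped. Kit itself, the antigen of the sort, was at 37.1 and 0.875 CPM, a ratio of 42.4 (27.4 to 69.6). A gap of 4-fold or more toward cKIT+ was found for 132 of 8023 genes at or above 10 CPM in either sort (1.65%), both members included, and one toward cKIT- for 174 (2.17%). Cma1 reached 10 CPM only in cKIT+, so its place in this count is given no weight.

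The UMIs of both genes were concentrated in few cells. In cKIT+, 732 cells (11.3%) held Gzmb before thinning; 241 of them had 1 UMI and 270 had 10 or more, and the highest cells had 127, 87 and 86. In cKIT-, 160 cells (4.37%) held it, 103 with 1 UMI, and the highest cells had 17, 7 and 6. So the cKIT+ cells reached counts per cell that no cKIT- cell approached. Cma1 was more uneven: of 222 cKIT+ cells with it, 134 had 1 UMI, the highest had 152, 113 and 91, and 11 cells held 50% of its UMIs, where 95 cells held that share of Gzmb. Of 37 cKIT- cells with Cma1, the highest had 3 UMIs.

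At 2000 UMIs per cell, 438 of 6134 cKIT+ cells held Gzmb (7.14%, 6.51 to 7.81), 73 held Cma1 (1.19%, 0.934 to 1.49) and 418 held Kit (6.81%, 6.20 to 7.47). Of 3486 cKIT- cells, 54 held Gzmb (1.55%, 1.17 to 2.02), 6 held Cma1 (0.172%, 0.0632 to 0.374) and 7 held Kit (0.201%, 0.0808 to 0.413). The gap between sorts widened with the number of UMIs asked for. At least 3 Gzmb UMIs were found in 230 cKIT+ cells (3.75%) and in 1 cKIT- cell, and at least 3 Cma1 UMIs in 32 cKIT+ cells and in 0 of 3486 cKIT- cells, which allows a share of up to 0.0861%.

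Classes of cells that should lack both genes gave shares that differed. In granulocyte/monocyte progenitor-like cells of cKIT+ (median 25842 UMIs), 1 of 516 held Gzmb (0.194%, 0.00491 to 1.08) and 1 of 516 held Cma1. In neutrophil-like cells of cluster 16 (median 15549 UMIs) the Gzmb share was 5.31% (2.86 to 8.90) and in macrophage-like cells (median 4557 UMIs) 2.56% (0.312 to 8.96). Cells of high doublet score held 155 of the 162 Gzmb UMIs of cluster 16, and the macrophage-like share rests on 2 of 78 cells. In B cell-like cells of cKIT- (median 2681 UMIs), 1 of 219 held Gzmb (0.457%, 0.0116 to 2.52) and 0 held Cma1, which allows up to 1.37%. Basophil-like cells held Gzmb in 93 of 3913 cKIT+ cells (2.38%, 1.92 to 2.90, median 14315 UMIs) and in 52 of 3112 cKIT- cells (1.67%, 1.25 to 2.19, median 4671 UMIs). Part of the Gzmb UMIs of cKIT+ basophil-like cells lay in cells of high doublet score, with values given below. The cKIT+ basophil-like share lay above the progenitor-like share and below those of cluster 16 and of the macrophage-like cells. Given the limits of these classes, the values do not settle whether the basophil-like share exceeds background. The interval of the cKIT- basophil-like share overlapped that of the B cell-like cells. Cma1 was in 13 of 3913 cKIT+ (0.332%) and 6 of 3112 cKIT- (0.193%) basophil-like cells, and its intervals overlapped those of the cells that should lack it.

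Cma1 was found mostly in cells that also held Gzmb, while most Gzmb cells held no Cma1. Among cKIT+ cells with Gzmb, 62 of 438 held Cma1 (14.2%, 11.0 to 17.8), against 11 of 5696 cells without Gzmb (0.193%, 0.0964 to 0.345). Read the other way, 62 of 73 Cma1 cells held Gzmb (84.9%, 74.6 to 92.2), against 376 of 6061 others (6.20%, 5.61 to 6.84). That draw was a high one: the expected share over all draws was 73.7%, and 61.7% of Cma1 cells held Gzmb before thinning. The cells are those of 1 library and are not replicates.

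Kit was found with both proteases. It was in 118 of 438 Gzmb cells (26.9%, 22.8 to 31.4) against 300 of 5696 cells without Gzmb (5.27%, 4.70 to 5.88), and in 27 of 73 Cma1 cells (37.0%, 26.0 to 49.1) against 391 of 6061 (6.45%, 5.85 to 7.10). Among Kit cells, 118 of 418 held Gzmb (28.2%, 23.96 to 32.8) and 27 held Cma1 (6.46%, 4.30 to 9.26). In this draw all 27 cells with Kit and Cma1 also held Gzmb, and the combination of Cma1 and Kit without Gzmb was found in 0 cells. The other combinations were 35 cells with Gzmb and Cma1 only, 91 with Gzmb and Kit only, 285 with Gzmb alone, 11 with Cma1 alone and 300 with Kit alone. At other depths the combination of Cma1 and Kit without Gzmb did occur. Gzmb was in 13 of 14 cKIT+ cells with Kit and Cma1 at 1000 UMIs per cell, and in 54 of 55 at 5000 UMIs.

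**Figure D1:**
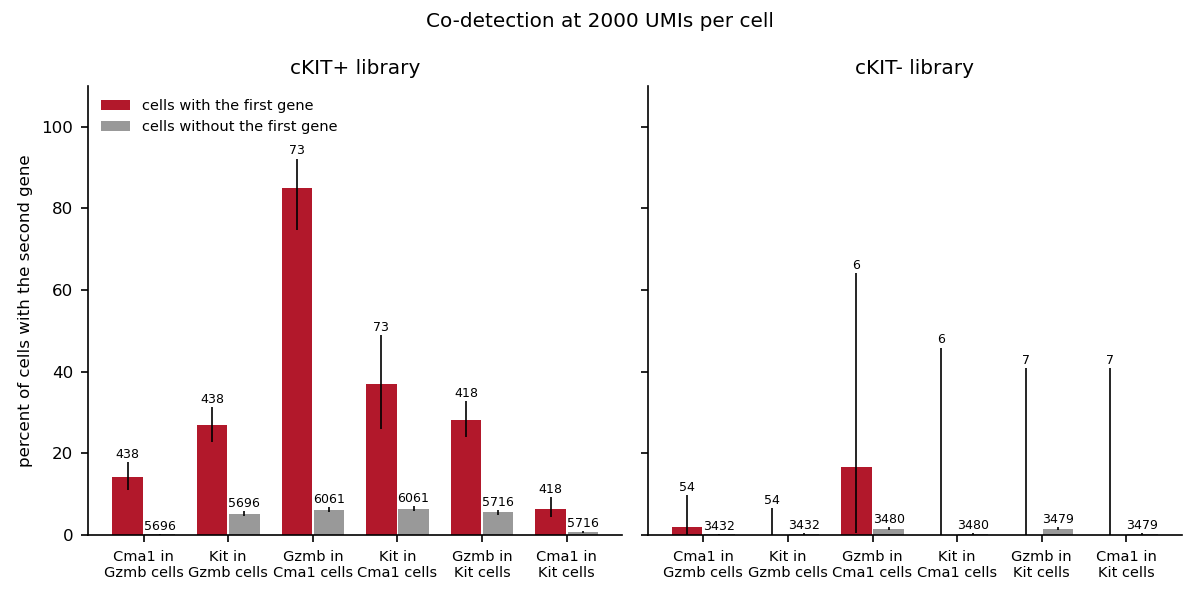
Percent of cells with the second gene (y axis) among cells with (red) and without (grey) the first gene at 2000 UMIs per cell, in the cKIT+ (left) and cKIT- (right) library. Bars are shares, lines are 95% exact binomial intervals, and the numbers are the cells in each denominator; in cKIT+ every red bar is above its grey one, from 6.46% for Cma1 in Kit cells to 84.9% for Gzmb in Cma1 cells, while the cKIT- red bars rest on 54, 6 and 7 cells.

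In cKIT- few cells bore on the same overlap. Cma1 was in 1 of 54 Gzmb cells (1.85%, 0.0469 to 9.89), Kit in 0 of 54, which allows up to 5.56%, and Gzmb in 1 of 6 Cma1 cells and 0 of 7 Kit cells. At 1000 UMIs per cell, Cma1 was in 2 of 40 Gzmb cells (5%, 0.611 to 16.9) against 4 of 3594 others (0.111%, 0.0303 to 0.285). These intervals did not overlap, while at 2000 UMIs the interval overlapped that of the others (0.146%, 0.0473 to 0.340). At 5000 UMIs, Cma1 was in 0 of 96 Gzmb cells, which allows up to 3.125%, against 14 of 1564 others (0.895%). That limit lies above the share of the others, so this depth does not decide the question. Cells with both genes in cKIT- thus numbered 2, 1 and 0 at 1000, 2000 and 5000 UMIs, too few to settle an overlap. Each depth was drawn separately, and higher depths left out more cells. Of the 54 cKIT- Gzmb cells, 52 were basophil-like.

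Cells with more Gzmb more often held Cma1 and Kit. Cma1 was in 8 of 140 cells with 1 Gzmb UMI (5.71%, 2.50 to 10.9), 18 of 93 with 5 to 9 (19.4%, 11.9 to 28.9) and 16 of 48 with 10 to 19 (33.3%, 20.4 to 48.4). Kit was in 21 of 140 (15%, 9.53 to 22.0), 39 of 93 (41.9%, 31.8 to 52.6) and 21 of 48 (43.8%, 29.5 to 58.8) of the same cells. The 4 cells with 20 or more Gzmb UMIs held Cma1 and Kit in 3 cells each. The median of total UMIs was lower with more Gzmb, at 9747 in the cells with 1 Gzmb UMI and 7205.5 in those with 10 to 19, against 13993 without Gzmb.

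Other granule genes differed along the same bins. Mcpt8, the basophil protease mMCP-8, was at 11961 CPM in cells with 1 Gzmb UMI, 1675 in those with 5 to 9 and 1325 in those with 10 to 19, against 11364 in cells without Gzmb. Prss34, another basophil protease, was at 11287, 359 and 100 CPM, against 11408. As a pool, the cells with 1 Gzmb UMI thus had basophil protease levels like those of cells without Gzmb. Of these 140 cells, 63 were basophil-like and 58 lay in cluster 10, described below, so the pool joins unlike cells. Mitf, a transcription factor of the mast lineage, went the other way, from 3.43 CPM without Gzmb to 19.2, 96.1 and 177 CPM, and Cpa3, the carboxypeptidase of mast cells and basophils, was at 1932, 2085, 2453 and 2923 CPM. Cdh1, by whose protein the cells were sorted, was at 62.2 CPM without Gzmb and 90.0, 52.3 and 58.1 CPM in these bins.

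**Figure D2:**
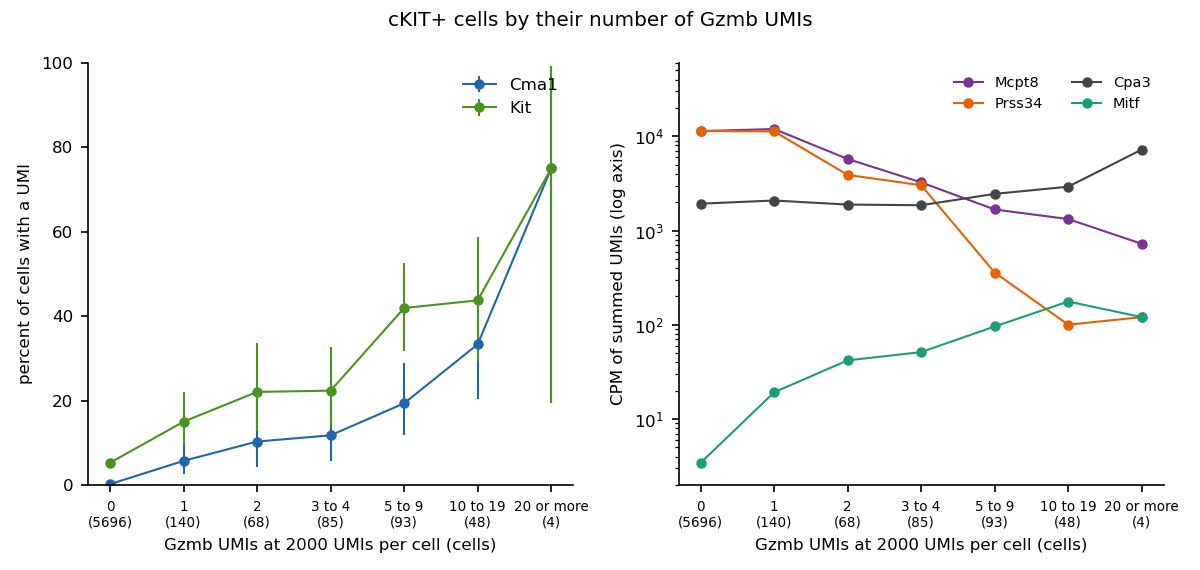
cKIT+ cells by their Gzmb UMIs at 2000 UMIs per cell (x axis, number of cells in brackets). Left, percent of cells with Cma1 (blue) or Kit (green) with 95% exact binomial intervals; right, CPM of summed UMIs (log axis) of 4 genes. Cma1 goes from 0.193% to 33.3% and Kit from 5.27% to 43.8% between cells with 0 and 10 to 19 Gzmb UMIs, Prss34 from 11408 to 100 CPM and Mitf from 3.43 to 177 CPM; the last bin holds 4 cells.

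Binned by Cma1 instead, Gzmb was in 71.9% of 32 cells with 1 Cma1 UMI, 88.9% of 18 with 2 to 4 and 100% of 23 with 5 or more, and Kit in 25%, 38.9% and 52.2%. Cpa3 was at 2321, 4328 and 8141 CPM in these cells. Prss34 was at 6660, 6975 and 120 CPM, so the cells with the most Cma1 were the ones with little Prss34. Binned by Kit, Gzmb was in 320 of 5716 cells without Kit, 86 of 363 with 1 Kit UMI, 22 of 42 with 2 and 10 of 13 with 3 or more.

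The cells with the most of each gene were looked at singly. The 11 cells that held 50% of the Cma1 UMIs had 46 to 152 Cma1 UMIs, 3 to 47 Gzmb UMIs and 1 to 5 Kit UMIs, so all 11 held all 3 genes. The 10 cells with the most Gzmb had 61 to 127 Gzmb UMIs; 9 held Kit and 5 held Cma1, with at most 40 UMIs. The highest Cma1 cell had 7 Gzmb UMIs and the highest Gzmb cell had 4 Cma1 UMIs. No cell was among both sets.

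Clusters were built without Gzmb and Cma1 among the variable genes, and 24 held 50 cells or more. One of them, cluster 10, held most of both genes. It had 430 cells, all from cKIT+, with a median of 8492.5 UMIs. Gzmb was at 1740 CPM there (1698 to 1782) and Cma1 at 332 CPM (314 to 351). These 6.64% of the cKIT+ cells held 80.4% of its Gzmb, 76.8% of its Cma1 and 19.4% of its Kit UMIs. Of their 430 cells, 71 had no Gzmb UMI and 330 no Cma1 UMI; the median was 10 Gzmb UMIs, with quartiles of 2 and 22.75.

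Cluster 10 fitted no single cell type by its markers and is left unnamed. Of 15 mast cell markers, only Kit, Hs3st1, Mitf and Il1rl1 were present. Those not present were Mcpt1, Mcpt2, Mcpt4, Mcpt9, Cma2, Mrgprb1, Mrgprb2, Slc6a4, Tph1 and the tryptases Tpsb2 and Tpsab1, which mark mature mast cells. The tryptases had 0 UMIs in the 438 Gzmb cells at equal depth, of which 313 lay in cluster 10. Of 12 basophil markers, Ms4a2, Cpa3, Gata2, Hdc and Il3ra were present, while Mcpt8 was at 984 CPM against 36986 in the cluster with the most. Kit was at 174 CPM. Doublet scores were high in 13 of the 430 cells (3.02%), against 0.220% to 29.96% in the other clusters of 50 cells or more.

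The order of the other clusters was not resolved. After cluster 10, Gzmb was highest in cluster 11, eosinophil-like cells of low depth (56.1 CPM, 41.7 to 74.0), cluster 16, neutrophil-like cells (37.0 CPM, 31.5 to 43.2), the unnamed cluster 20 (33.7 CPM, 22.9 to 47.8) and the basophil-like clusters 3 (28.6 CPM, 25.6 to 31.8) and 7 (27.4 CPM, 24.3 to 30.6). From there each cluster's interval overlapped that of the next, down to 4.05 CPM in granulocyte/monocyte progenitor-like cells and 1.07 CPM in erythroid-like cells. High doublet scores were given to 77 of the 257 cells of cluster 16 (29.96%), and these held 155 of the cluster's 162 Gzmb UMIs, 61 of them in 1 cell. In cluster 20 all Gzmb came from 3 cells, 1 of which held 15 of the 31 UMIs, and in the progenitor-like cluster 1 cell of high doublet score held 33 of 54.

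Outside cluster 10, single cells set the Cma1 level of several clusters. It was at 32.6 CPM in cluster 20, where 1 cell held all 30 UMIs, and at 15.5 CPM in cluster 16, where 1 cell of high doublet score held 67 of 68. In the granulocyte/monocyte progenitor-like cluster 1 cell held 53 of 55. In the other clusters it was at 0.614 to 8.83 CPM, and 6 clusters had 0 UMIs. The basophil-like cells held 208 of the 378 cKIT+ Cma1 UMIs outside cluster 10, with at most 29 in a cell, and were at 3.51 CPM in cKIT+ and 2.13 CPM in cKIT-.

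**Figure D3:**
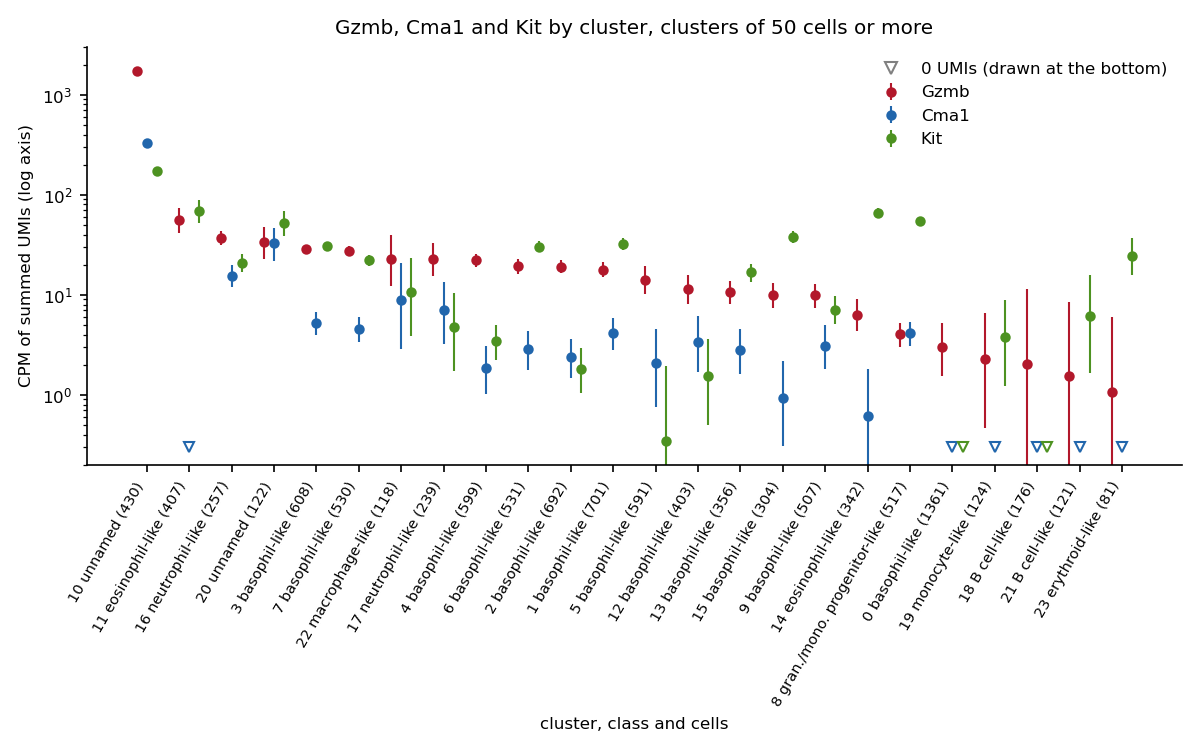
CPM of summed UMIs (log axis) of Gzmb (red), Cma1 (blue) and Kit (green) in the 24 clusters of 50 cells or more, ordered by Gzmb, with the class and number of cells on the x axis. Lines are 95% exact Poisson intervals, cut at the bottom of the axis, and open triangles are 0 UMIs; cluster 10 stands at 1740, 332 and 174 CPM, and Kit does not follow the order of Gzmb in the rest.

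Within cKIT-, Gzmb was spread over the basophil-like clusters. It was at 1.85 CPM (0.743 to 3.81) in cluster 0, the largest with 1287 cKIT- cells, at 13.7 CPM (10.5 to 17.5) in cluster 2 and at 18.3 CPM (14.1 to 23.4) in cluster 4. In cluster 5 it was at 14.6 CPM (10.4 to 19.9) and in cluster 12 at 13.4 CPM (9.22 to 18.8). Clusters 2 and 4 were led by cell cycle genes, clusters 0 and 5 by genes such as Cd7 and Ccl6, and cluster 12 by genes such as Cd200r4 and Prss34. It was at 68.7 CPM in the 48 cells of cluster 3, where 1 cell held 17 of 38 UMIs. Cma1 was at 0 UMIs in cluster 0 and at 3.04 and 1.14 CPM in clusters 2 and 4.

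The overlap of Gzmb with Cma1 was seen inside cluster 10 and, in 7 cells, outside it. Inside, Cma1 was in 55 of 313 Gzmb cells (17.6%, 13.5 to 22.2) and in 0 of 117 others, which allows up to 2.56%. Outside, it was in 7 of 125 Gzmb cells (5.60%, 2.28 to 11.2) and in 11 of 5579 others (0.197%, 0.0985 to 0.353). Among basophil-like cells Cma1 was in 3 of 93 Gzmb cells (3.23%, 0.670 to 9.14) and 10 of 3820 others (0.262%, 0.126 to 0.481). In clusters 16 and 17, cells of high doublet score held 68 of 68 and 9 of 9 Cma1 UMIs, so the outside overlap rests on few cells. Kit was in 105 of 313 (33.5%, 28.3 to 39.1) and 25 of 117 (21.4%, 14.3 to 29.9) inside, and in 13 of 125 (10.4%, 5.65 to 17.1) and 275 of 5579 (4.93%, 4.38 to 5.53) outside. Kit was thus more frequent in the Gzmb cells in both places, and overlapping intervals do not show equal shares. The Kit intervals overlapped inside cluster 10 and did not outside it. Among basophil-like cells they overlapped again, with Kit in 6 of 93 Gzmb cells (6.45%, 2.40 to 13.5) and 141 of 3820 others (3.69%, 3.12 to 4.34).

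Outside cluster 10 most cells with a member had 1 UMI, and a few held most of the UMIs. Of the 373 with Gzmb before thinning, 218 had 1 UMI, while 42 with 10 or more held 976 of the 1599 UMIs (61.0%). Of the 122 with Cma1, 90 had 1 UMI and 6 with 10 or more held 207 of 378 (54.8%). Inside cluster 10 the median of the 359 cells with Gzmb was 13 UMIs. At equal depth 93 of the 438 Gzmb cells were basophil-like, and 10 of the 11 cells with Cma1 but not Gzmb were too. Of the 300 Kit cells without Gzmb, 141 were basophil-like, 55 granulocyte/monocyte progenitor-like, 44 in the eosinophil-like cluster 14 and 25 in cluster 10, where 105 of the 118 Kit cells with Gzmb lay.

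Of the neighbours of the members in the chymase locus, the abundant ones were lower in the Gzmb cells. Of the 13 protein-coding genes between Cma1 and Gzmb, Cma2, Mcpt1, Mcpt9, Mcpt2, Mcpt4, Mcpt8, Ctsg, Gzme, Gzmd, Gzmg, Gzmn, Gzmf and Gzmc, only Mcpt8 and Ctsg reached 10 CPM in the Gzmb cells or in the other cKIT+ cells, and 5 had 0 UMIs in both. Mcpt8 was at 6338 CPM in Gzmb cells, 11364 CPM in other cKIT+ cells and 26187 CPM in cKIT-. Ctsg, cathepsin G of myeloid granules, was at 1088, 3785 and 3033 CPM.

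The nearest relatives gave few UMIs, and Cma2, Gzmc and Mcpt2 were, in these few, higher by CPM in the Gzmb cells. Cma2, a chymase gene next to Cma1, had 13 UMIs in Gzmb cells (2.92 CPM), 0 in other cKIT+ cells and 0 in cKIT-. Mcpt4, a chymase of connective tissue mast cells, had 1 and 1 UMI, and Mcpt1, a mucosal mast cell protease, had 0 and 1. Mcpt2, another of these, had 3 UMIs (0.675 CPM) and 6 UMIs (0.0695 CPM), a ratio of 9.70 (1.57 to 45.4). Gzmc, the granzyme next to Gzmb, had 7 UMIs (1.57 CPM) and 15 UMIs (0.174 CPM) and was at 2.54 CPM in cKIT- (58 UMIs). A count of 0 in the Gzmb cells allows up to 0.675 CPM. These genes are close copies, and reads that fit several genes equally are not counted by Cell Ranger, so their low values are uncertain.

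**Figure D4:**
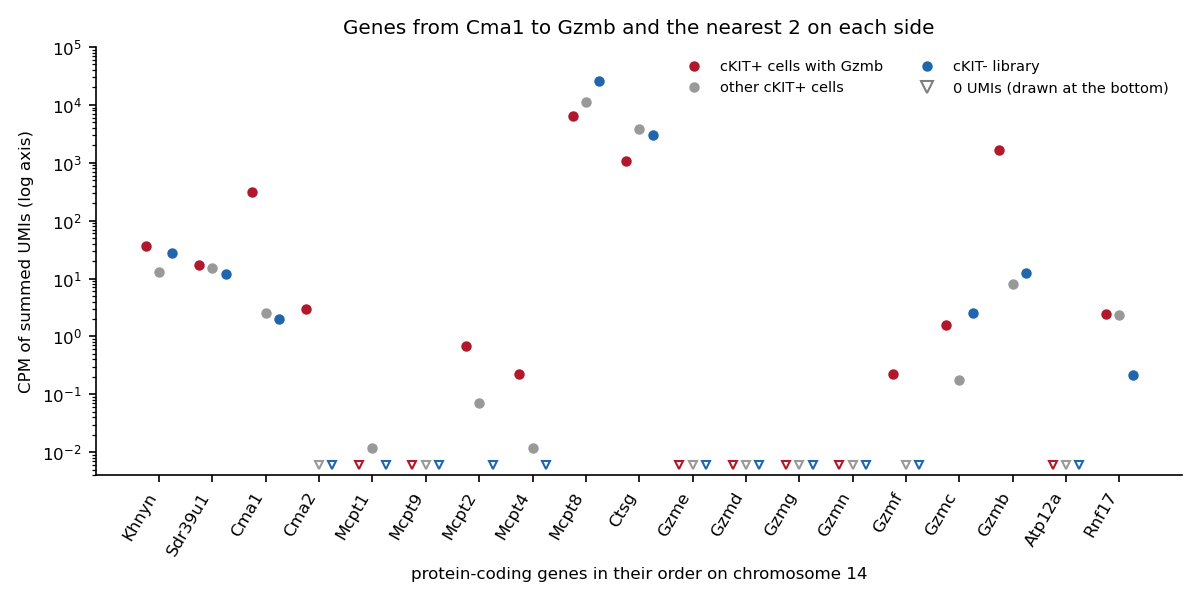
CPM of summed UMIs (log axis) of the protein-coding genes from Cma1 to Gzmb and the nearest 2 on each side, in their order on chromosome 14 with even spacing, in cKIT+ cells with Gzmb (red), other cKIT+ cells (grey) and the cKIT- library (blue). Open triangles are 0 UMIs; Cma1 and Gzmb stand at 318 and 1675 CPM in the Gzmb cells, which were chosen by Gzmb, while Mcpt8 and Ctsg between them are lower in those cells than in the others.

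The 438 Gzmb cells were set against the 5696 other cKIT+ cells of the same library. Of the 438, 313 lay in cluster 10 and 93 were basophil-like, so their values are those of a mixed pool. The Gzmb cells had a median of 8807 UMIs against 13993, a mitochondrial share of 3.44% against 3.36%, and high doublet scores in 9.13% against 4.85%. Among 8160 genes with 10 CPM on a side, 105 were at least 4-fold higher in the Gzmb cells (1.29%) and 57 at least 4-fold lower (0.699%). Gzmb chose these cells, so its own ratio is no result. Cma1 was at 318 CPM against 2.52, a ratio of 126 (110 to 147), and Kit at 144 against 31.5, a ratio of 4.57 (4.18 to 4.98).

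Besides the members, the 10 genes with the largest ratios included several regulators. All 10 reached 50 CPM, the level asked of a named gene, only in the Gzmb cells. All but Id2 and Cx3cr1 also reached 10 CPM only there, so the ranking is given no weight. Atp8b5, of the lipid flippase family, was at 84.8 against 1.39 CPM, a ratio of 61.0 (49.5 to 75.5), and Hes1, a Notch target that represses transcription, at 60.3 against 1.24 CPM, a ratio of 48.6 (38.7 to 61.4). Mitf was at 57.6 against 3.43 CPM (16.8, 14.1 to 19.9), Id2, an inhibitor of basic helix-loop-helix factors, at 360 against 35.4 CPM (10.2, 9.57 to 10.8), and Ahr, the aryl hydrocarbon receptor, at 57.1 against 3.38 CPM (16.9, 14.2 to 20.04). These 3 are transcriptional regulators known in mast cells or innate lymphocytes. The others were Kcnc1, a potassium channel (20.7), Cd7, a surface protein of lymphoid cells (17.0), Gm20186 (11.3), Snap47 (9.40) and Cx3cr1, the fractalkine receptor (9.28).

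Shares at equal depth come from the same cells and give no separate support. Id2 was found in 43.8% of Gzmb cells (39.1 to 48.6) and 6.92% of others (6.27 to 7.61), and Cd7 in 21.5% (17.7 to 25.6) and 1.98% (1.64 to 2.38). Atp8b5 was in 14.2% (11.0 to 17.8) and 0.246% (0.134 to 0.412). No single cell held more than 3.29% of the UMIs of any of these 10 genes in the Gzmb cells.

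The lower genes included markers of other lineages. Of the 10 with the smallest ratios, only Elane, Prtn3 and Mpo reached 50 CPM on both sides, so this ranking is given no weight either. Prg2, Prg3 and Epx, granule proteins of eosinophils, were at 6.97 against 463, 0.675 (3 UMIs) against 60.4 and 7.87 against 91.1 CPM. Elane, Prtn3 and Mpo, granule enzymes of neutrophil precursors, were at 193 against 2303, 124 against 1462 and 622 against 3999 CPM, and in the Gzmb cells 1 cell held 85.4% of the Elane and 67.8% of the Prtn3. Without the highest cell on each side the ratio of Elane was 0.0123 in place of 0.0839 and that of Prtn3 0.0275 in place of 0.0851. Prss57 and Ly6c2, genes of granulocyte and monocyte precursors, had ratios of 0.121 and 0.152. The antibody genes Igkc and Ighm were lower too (0.00588 and 0.0882), where 1 cell held 64.7% and 39.6% of the UMIs in the other cells; without the highest cells the ratio of Igkc was 0.0153. For these genes the other cKIT+ cells included the eosinophil-like, progenitor-like and B cell-like clusters. Mpo was not confined to such clusters. At equal depth it was in 4708 of the 5696 other cells (82.7%), and 3820 of the 5696 were basophil-like.

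**Figure D5:**
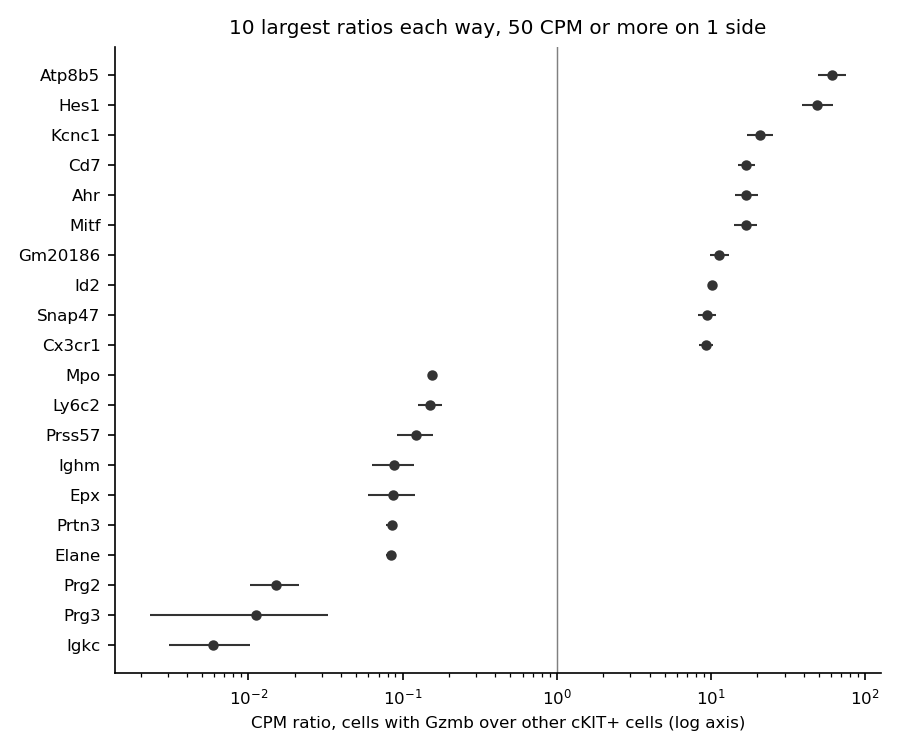
Ratio of CPM in cKIT+ cells with Gzmb over other cKIT+ cells (log axis, 1 is the grey line) for the 10 genes other than Gzmb and Cma1 with the largest ratio each way among genes with 50 CPM on a side. All 10 higher genes reached 50 CPM only in the Gzmb cells. Points are ratios and lines 95% intervals that cover counting error; they run from 61.0 for Atp8b5 to 0.00588 for Igkc, and without the highest cell on each side Igkc, Elane and Prtn3 are at 0.0153, 0.0123 and 0.0275.

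Genes of mast cell growth and surface differed in direction. Of 20 listed genes 16 reached 10 CPM, 10 with a higher and 6 with a lower value in the Gzmb cells, and 4 were at least 4-fold higher and 0 lower, with a median log2 ratio of 0.45 against 0.12 over all 8160 genes. Besides Kit, by which the pair was in part chosen, these were Itga4 (495 against 73.2 CPM) and Itgb7 (208 against 49.4 CPM), the chains of the integrin by which mast cell progenitors home to tissue, and Hpgds, a prostaglandin D synthase (19.1 against 4.24 CPM), which reached 10 CPM only in the Gzmb cells. Because the counts and the median of this list include Hpgds, they are given no weight. Il1rl1, the receptor for interleukin 33, had a ratio of 2.41 (2.17 to 2.68). The chains of the high-affinity IgE receptor did not move together: Fcer1a was at 220 against 386 CPM, Ms4a2 at 760 against 919 CPM and Fcer1g at 1252 against 856 CPM.

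Among regulators, 20 of 28 reached 10 CPM, with 3 at least 4-fold higher, 1 lower and a median log2 ratio of 0.56. Mitf and Hes1, given above, reached 10 CPM only in the Gzmb cells, so the count of higher regulators and the median are given no weight. Meis1, a homeobox gene of early progenitors, was at 80.1 against 12.1 CPM, while Cebpe, which drives granulocyte maturation, was at 26.5 against 155 CPM. Gata2, needed by mast cells and basophils, was at 846 against 478 CPM (1.77, 1.71 to 1.83). Cebpa, which directs cells away from the mast fate, was at 103 against 229 CPM. The 12 cell cycle genes all had lower values in the Gzmb cells, with none 4-fold lower, 3 at least 2-fold lower and a median log2 ratio of -0.80. Over all 8160 genes, 275 were at least 2-fold lower.

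Processing and release of granzyme involve further genes. Ctsc was at 130 against 55.3 CPM, a ratio of 2.35 (2.15 to 2.56). Srgn, serglycin, was at 2587 against 2668 CPM and Serpinb9, the intracellular inhibitor of granzyme B, at 8.10 against 4.89 CPM. Of the 14 genes of protease activation, storage and inhibition, 9 reached 10 CPM, with 0 at least 4-fold higher and 1, Serpina3g, lower, and a median log2 ratio of -0.04. Serpina3g (2.47 against 13.2 CPM) reached 10 CPM only in the other cells, so this count of lower genes and the median are given no weight. Of 10 genes of cytotoxic granule release, 7 reached 10 CPM and none was 4-fold different, with a median log2 ratio of -0.28; Prf1, perforin, stayed below that level with 27 UMIs (6.07 CPM) against 32 (0.371 CPM). No other granzyme reached 10 CPM, and of 9 other granzyme genes 5 had 0 UMIs in the Gzmb cells.

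T and NK cell markers were at like summed levels on both sides. Of 15 markers 3 reached 10 CPM and none was 4-fold different, with summed levels of 1305 against 1314 CPM. Nkg7, Trbc1 and Trbc2 made up most of this, with Nkg7 at 820 against 847 CPM. Prf1, on this list too, was below 10 CPM with a ratio of 16.4 (9.44 to 28.2). Cd3e and Ncr1, which define T and NK cells, had 1 UMI each in the Gzmb cells, and Trac, Klrb1c and Tbx21 had 0, which allows up to 0.675 CPM. Of the mast cell proteases and chymase group, 4 of 12 other genes reached 10 CPM, with none 4-fold different in this mixed pool. These were Mcpt8, Ctsg, Cpa3 (2176 against 1932 CPM) and Prss34 (5401 against 11408 CPM), with a median log2 ratio of -0.96. In cluster 10 alone, Mcpt8 was at 984 CPM and Ctsg at 187 CPM. Of 15 mast cell markers 4 reached 10 CPM, among them Hs3st1, a heparan sulfate sulfotransferase (32.8 against 5.88 CPM). Mitf and Hs3st1 reached that level only in the Gzmb cells, so a count of those that were higher is given no weight. The summed level of the 15 was 329 against 78.4 CPM.

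Markers of several other lineages were lower in the Gzmb cells, and those of early progenitors were not. At least 4-fold lower were 5 of 6 granulocyte/monocyte progenitor markers (summed 2326 against 12874 CPM), 4 of 7 eosinophil markers that reached 10 CPM (67.0 against 728 CPM) and 4 of 5 B cell markers (31.7 against 185 CPM). Over all genes, 57 of 8160 (0.699%) were at least 4-fold lower and 105 (1.29%) higher. These 4 eosinophil and 4 B cell markers reached 10 CPM only in the other cells, so their counts are given no weight. Neutrophil markers were at 13627 against 25349 CPM and basophil markers at 16080 against 26879 CPM, with 0 of either 4-fold different. The Gzmb cells include 93 that were themselves basophil-like. Of 8 stem and early progenitor markers 4 reached 10 CPM, with 1 at least 4-fold higher and 0 lower, summing over the list to 279 against 145 CPM; Cd34 was at 142 against 87.3 CPM. The part of this make-up in the 57 lower genes was not tested. Without the cells of highest doublet score 111 genes were lower and 127 higher. Against basophil-like cells alone, 16 genes were lower and 148 higher, a comparison added after the data were seen.

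Within the Gzmb cells, those with Cma1 were set against those without. The 62 Cma1 cells had a median of 7065.5 UMIs against 9179.5 in the other 376, with high doublet scores in 9.68% against 9.04%. Of 8295 genes with 10 CPM on a side, 91 (1.1%) were at least 4-fold higher and 55 (0.663%) lower. Gzmb was at 3195 against 1476 CPM (2.16, 2.05 to 2.29) and Kit at 302 against 123 CPM (2.46, 2.04 to 2.95). At equal depth Kit was in 43.5% (31.0 to 56.7) of the cells with Cma1 and 24.2% (19.96 to 28.9) of those without.

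Some mast cell genes were higher and some lower in the cells with Cma1. Cpa3 was at 4641 against 1852 CPM (2.51, 2.39 to 2.62), Mitf at 157 against 44.5 CPM (3.53, 2.68 to 4.61) and Il1rl1 at 190 against 77.1 CPM (2.46, 1.94 to 3.10). Hpgds was at 62.03 against 13.5 CPM (4.60, 2.87 to 7.27), the 1 gene of the growth and surface list past 4-fold, where the median log2 ratio over 16 genes was 0.33 against 0.06 over all. Of all 8295 genes, 91 (1.1%) were at least 4-fold higher. On that list Fcer1a was more than 2-fold lower (73.7 against 240 CPM, 0.307, 0.216 to 0.425), and Hdc and Ms4a2 had ratios of 0.744 and 0.794. Cma2 had 9 of its 13 UMIs in these 62 cells. Socs2, a feedback inhibitor of cytokine signals, was in 11 of 62 against 3 of 376 cells (17.7% and 0.798%) and Basp1, a membrane-bound signaling protein, in 19 of 62 against 25 of 376 (30.6% and 6.65%). Both reached 50 CPM only in the cells with Cma1, and their place among the largest ratios is given no weight. Prss34 was lower, at 971 against 5982 CPM (0.162, 0.148 to 0.177), though it was in 30.6% and 33.2% of the cells; 1 of the 62 cells held 48.9% of its UMIs, and without the highest cells its ratio was 0.0865.

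Several large ratios of this comparison came from 1 cell. Cd209a, H2-Aa, Cd74, H2-Ab1, Clec10a and Ctss, genes of dendritic cells and antigen presentation, had ratios of 12.7 to 25.4, with 83.9% to 100% of their UMIs in 1 of the 62 cells, and C1qa of macrophages had 52.2%. All 4 dendritic markers that reached 10 CPM and 4 of 6 macrophage markers were at least 4-fold higher, summing to 2501 against 175 and 231 against 34.9 CPM. Of these markers, 1 of the 4 dendritic and 5 of the 6 macrophage ones reached 10 CPM only in the Cma1 cells. Both counts are therefore given no weight. Hbb-bs, Hba-a1 and Hbb-bt were lower, and 1 of the 376 cells held 97.1% to 98.8% of their UMIs. With the highest cell of each side left out, gene by gene, 48 genes were higher and 154 lower; the ratios of H2-Aa, H2-Ab1 and Hbb-bt were then 0.346, 0.896 and 1.09, and those of Socs2 and Basp1 were 23.9 and 5.21.

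Kit cells with and without Gzmb differed more widely. The 118 with Gzmb had a median of 7497.5 UMIs and the 300 without 13935.5, and Kit itself was at 338 against 128 CPM (2.64, 2.30 to 3.03). Of 8511 genes, 274 (3.22%) were at least 4-fold higher and 229 (2.69%) lower. With the highest cell of each side left out, gene by gene, 249 were higher and 308 lower. Cma1 had 585 UMIs in the first and 10 in the second. Hs6st2, a heparan sulfate sulfotransferase, had 51 (51.8 CPM) against 0 UMIs, and Atp8b5 was at 169 against 2.36 CPM (71.5, 38.9 to 146).

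Of the 15 growth and surface genes that reached 10 CPM, 11 had a higher and 4 a lower value on the Gzmb side, with 3 at least 4-fold higher and 0 lower. Of these 15, 1 reached 10 CPM only on the Gzmb side, so the counts are given no weight. Hdc was lower, at 71.1 against 245 CPM. Among the genes with the largest ratios, which reached 10 CPM only on the Gzmb side, Mitf was at 110 against 4.08 CPM (26.9, 16.4 to 46.5), Hs3st1 at 59.96 against 2.57 CPM (23.3, 12.4 to 47.6), and Rab27b, a GTPase of granule secretion, at 76.2 against 3.65 CPM (20.9, 12.2 to 37.8). Hes1, Maf, Basp1, Skap1 and Tubb2b had ratios of 27.3 to 53.1. The other Kit cells were richer in genes of other lineages and of division. All 6 granulocyte/monocyte progenitor markers were at least 4-fold lower with Gzmb (summed 886 against 15699 CPM), and so were 6 of 7 eosinophil markers and 6 of 12 cell cycle genes, among them Mki67 (32.5 against 191 CPM). Over all genes, 229 of 8511 (2.69%) were at least 4-fold lower. Among the eosinophil markers, at least Prg3 (1.02 against 128 CPM) and Epx (3.05 against 241 CPM) reached 10 CPM only without Gzmb. That eosinophil count is therefore given no weight. Macrophage and dendritic markers were higher on the Gzmb side (146 against 33.0 and 1343 against 359 CPM), where 1 cell held 95.9% of the H2-Aa and of the Cd74. For Hba-a1, Hbb-bs and Retnlg, lower there, 1 of the 300 cells held 70.8% to 96.7% of the UMIs.

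The genes most like the members over the 24 clusters were few. On log2(CPM + 1) over 5974 genes that reached 50 CPM in a cluster, the Pearson correlation with Gzmb was 0.89 for Atp8b5, 0.84 for Cma1, 0.82 for Kcnc1 and 0.70 for Osbpl8 and Snap47. With Cma1 it was 0.85 for Atp8b5, 0.84 for Gzmb, 0.68 for Snap47 and Id2, 0.65 for Basp1 and 0.62 for Trdc, the T cell receptor delta gene. Of these, Id2 and Trdc were highest in cluster 20 and Basp1 in the macrophage-like cluster 22, and the rest in cluster 10. Kit was less alike, at 0.49 with Gzmb and 0.46 with Cma1. Without cluster 10 the values were 0.75 for Atp8b5 and 0.67 for Cma1 with Gzmb, and 0.33 for Kit. The clusters share libraries and differ in depth, so these are descriptions over 24 points.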

How the data were processed

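Counts of UMIs per gene and cell were made and deposited by the authors with Cell Ranger 3.0.2 on mm10, per the submitters' processing notes; the labels name version 2 of the 10x 3′ kit and the methods version 3. The study's filter was rerun: genes in at least 40 cells of a library (12462 genes), without the 1% of cells with most and fewest genes and the 1% with most UMIs, which kept 10141 of 10377 cells. Shares were taken after drawing 2000 UMIs per cell (seed 1), with exact binomial (Clopper-Pearson) intervals; levels are CPM of summed counts with exact Poisson intervals, and ratios of CPM have intervals from the exact binomial. All cover counting error only at 95%, and a count of 0 allows 3 counts. With 1 library per sort no test was made. Genes entered a cell comparison at 10 CPM on a side. The calculation was tested on simulated data.

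Clusters came from Seurat 5.3.0 (2000 variable genes without Gzmb and Cma1, 15 components, resolution 1). A marker counted as present at 20 CPM and 10% of its highest cluster. A cluster was named X-like with at least 2 class markers among its 10 leading genes and 3 present, or basophil-like with at least 5 of 12 basophil markers present and Mcpt8 or Prss34 at 5% of its highest cluster; cluster 20, led by plasma cell genes, was left unnamed. This naming rule was set after the data were seen. Scrublet ran through Scanpy 1.11.5 and called 256 cKIT+ and 3 cKIT- cells; since 3 is too few to be a working call, the cells with the highest scores (0.8% per 1000 cells) were used instead and were not removed. Genes were named by rule: the 10 with the largest ratio each way at 50 CPM or more, the 6 most alike over clusters of 50 cells or more (1 of those for Gzmb is not reported here), members of gene lists, and neighbours in GENCODE M21, where 30934 of 31053 gene IDs matched. Genes named beyond this, in the comparisons of Cma1 and Kit cells, were taken by the same measure after the values were seen. The members and lists were chosen with earlier results of these data known. Alternatives used other depths, filters, clusterings, folds and scalings (edgeR 4.0.16 for TMM). Python 3.11.15, SciPy 1.17.1 and R 4.3.3 were used.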

Additional observations from a re-analysis of the deposited data

How the results depend on the processing

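No paired analysis was possible because there was 1 library per sort. Of 108 alternatives computed, 53 stayed within the counting interval or within 1.5 times a count and 55 moved. No ratio between the libraries turned, but 2 counts of genes changed their larger side when each gene's highest cell was left out. By mean UMIs per cell the cKIT+ over cKIT- ratio was 16.4 for Gzmb and 20.5 for Cma1, and by mean CPM over cells 17.1 and 25.9. Shares of cells followed the depth: Gzmb was in 5.26%, 9.15%, 4.86% and 11.3% of cKIT+ cells at 1000 UMIs, 5000 UMIs, with at least 2 UMIs and not thinned, and in 1.10%, 5.78%, 0.115% and 4.37% of cKIT- cells. Cma1 was in 0.869%, 2.19%, 0.668% and 3.43% of cKIT+ cells, and in 0.843%, 0% and 1.01% of cKIT- cells at 5000 UMIs, with at least 2 and not thinned. Cma1 among Gzmb cells was 18.7% not thinned and 10.7% over all deposited cells. Kit among Gzmb cells was 16.5%, 44.2%, 9.06% and 53.0% at 1000, at 5000, with at least 2 and not thinned. Gzmb among Kit cells was 20.3% at 1000, 49.1% with at least 2 and 18.9% not thinned. For these pairs, at least 2 UMIs were asked of both genes. The 9.06% is thus the share with 2 or more Kit UMIs, not with any Kit UMI, among cells with 2 or more Gzmb UMIs. The alternatives on Gzmb among Cma1 cells were all added after the data were seen: 72.7% at 1000, 68.3% at 5000, 61.7% not thinned, 68.7% over all deposited cells and 73.7% as the expected share over all draws. The highest cluster had 1827 CPM Gzmb and 352 CPM Cma1 with Kit also left out, 1797 and 354 at resolutions 0.5 and 2, and 1896 and 370 without the cells of highest doublet score.

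For Gzmb cells against other cKIT+ cells, 30 genes were higher and 20 lower at 50 CPM, 539 and 275 at 2-fold, and 165 and 156 when Gzmb cells needed 2 UMIs; 111 were lower without the cells of highest doublet score and 16 against basophil-like cells (added after the data were seen). For Cma1 cells against other Gzmb cells, 48 were higher and 154 lower with each gene's highest cell left out (also added), against 91 and 55 with all cells, and single genes such as H2-Aa turned. For Kit cells with Gzmb against other Kit cells the same change gave 249 higher and 308 lower (added), against 274 and 229. Between libraries, 37 were higher and 73 lower at 50 CPM, and 586 and 727 at 2-fold. The causes of these shifts were not tested, apart from depth, which the construction of the shares sets. With 1 library per sort, the sort, the library and the mice cannot be told apart, and counting intervals leave out all variation between animals. Cma1 levels rest on few cells, and at 2000 UMIs a cell with little of a gene can be read as lacking it.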
